A study of Mus musculus with 8 samples.

Results

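The immune checkpoint system was followed through 10 genes in whole 4T1.13 mammary tumours: the ligands Cd274 (PD-L1), Pdcd1lg2 (PD-L2), Cd80 and Cd86, and the receptors Pdcd1 (PD-1), Ctla4, Icos, Lag3, Havcr2 (TIM-3) and Tigit. The genes are well known receptors and ligands of the system, were listed by name with earlier results of these data known, and make up 10 of the 27179 genes in the count table. All 10 passed the filter on low counts that left 14382 genes for testing, and the lowest count of any of them in any tumour was 34. Bulk RNA sequencing compared 4 tumours of 4T1.13-VC cells (vector control, VC) with 4 tumours of 4T1.13-miR-21-KD cells. The comparison asks what the transcriptome of the tumour, host cells included, looks like when the activity of microRNA-21 in the carcinoma cells is repressed.

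4T1.13 is a highly metastatic mouse mammary carcinoma line of the 4T1 series. In miR-21-KD cells a lentiviral miArrest vector makes a transcript that binds and sequesters mature miR-21, and in VC cells the same vector holds a scrambled sequence. Each line was a pool of clones, so a group stands for 1 pool. Both lines were grown orthotopically, in the mammary fat pad, in immunocompetent BALB/c mice, and all tumours were taken on day 14 according to the labels. The paper gives an earlier day of recovery, at which it places the start of regression of the miR-21-KD tumours. The labels number the tumours 1 to 4 in each group without stating that each came from its own mouse, so the p-values measure the spread between these tumours. Between 12134849 and 13592695 reads were counted on genes per tumour, and a count of 0 allows up to 0.221 to 0.245 CPM, a limit that covers counting error only. CPM here means the count divided by the TMM-adjusted library total and set to a common scale. The vector acts on the mature miRNA, which these libraries did not measure, and Mir21a, the gene of the miRNA, had 0 counts in all 8 tumours, so the counts offer no check of the knockdown. The summed level of 9 epithelial marker genes lay between 1306 and 2264 CPM in VC and between 903 and 2016 CPM in miR-21-KD tumours, so epithelial markers were detected in every library.

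T cells that recognise antigen receive a second signal from receptors of the CD28 family. CD80 and CD86 on antigen-presenting cells stimulate through CD28 and inhibit through CTLA-4, which competes for the same ligands, while ICOS gives a further stimulatory signal. PD-1 is induced on activated T cells and restrains them when it binds PD-L1 or PD-L2, and LAG-3, TIM-3 and TIGIT restrain activated or chronically stimulated T cells through ligands of their own. PD-L1 can be made by tumour cells and by many immune cells, whereas PD-L2 is made mainly by dendritic cells and macrophages. Regulatory T cells carry CTLA-4, ICOS and TIGIT at high levels. Interferon gamma is a strong inducer of PD-L1.

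The sequence that defines the perturbed miRNA is shown first, because a gene with a match to its seed in the 3′ UTR could in principle be read by the miRNA itself. The mature strand lies at chr11:86584120-86584141 on the minus strand (RefSeq, GRCm38.p6), and the capitals mark its seed, bases 2 to 8.
miR-21a-5p: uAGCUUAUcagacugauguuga
The complement of the whole seed, ATAAGCT, occurred in the longest annotated 3′ UTR of 7.19% of 21039 mouse genes, and either that match or TAAGCTA, the match to bases 2 to 7 followed by an A, in 11.1%. None of the 10 checkpoint genes held ATAAGCT, and Cd80 was the single one to hold TAAGCTA, at position 449 of a 3′ UTR of 1896 bases. The 30 bases around it are at chr16:38494873-38494902 on the plus strand (GRCm38), with the match in capitals.
Cd80 3′ UTR: ccagacttccaggtgTAAGCTAtggcactt
The 3′ UTRs searched ran from 81 bases in Lag3 and 134 in Tigit to 2606 in Icos and 2683 in Cd274, against a median of 960 over all genes, so the short ones had little room for a match. A match of letters does not show that the site is used, and its absence says nothing about indirect effects.

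In all, 6 of the 10 genes rose in miR-21-KD tumours and 0 fell, by the quasi-likelihood test of edgeR with Benjamini-Hochberg adjustment over all 14382 genes (adjusted p under 0.05). The 6 were Pdcd1lg2, Icos, Ctla4, Havcr2, Cd274 and Cd80, with rises of 1.95-fold to 3.74-fold. Among all genes tested, 19.6% were called higher and 19.5% lower in the same way. The 6 called genes were also the 6 whose miR-21-KD tumours all lay above every VC tumour, a separation found in 16.3% of all genes. The median log2 fold change of the 10 genes was 1.01, beside -0.01 over all tested genes. No checkpoint gene fell at an unadjusted p under 0.05, and neither DESeq2 nor limma-voom called any lower, while they called 8 higher each. These are whole tumours, so more cells of a type and more RNA per cell cannot be told apart.

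**Figure D1:**
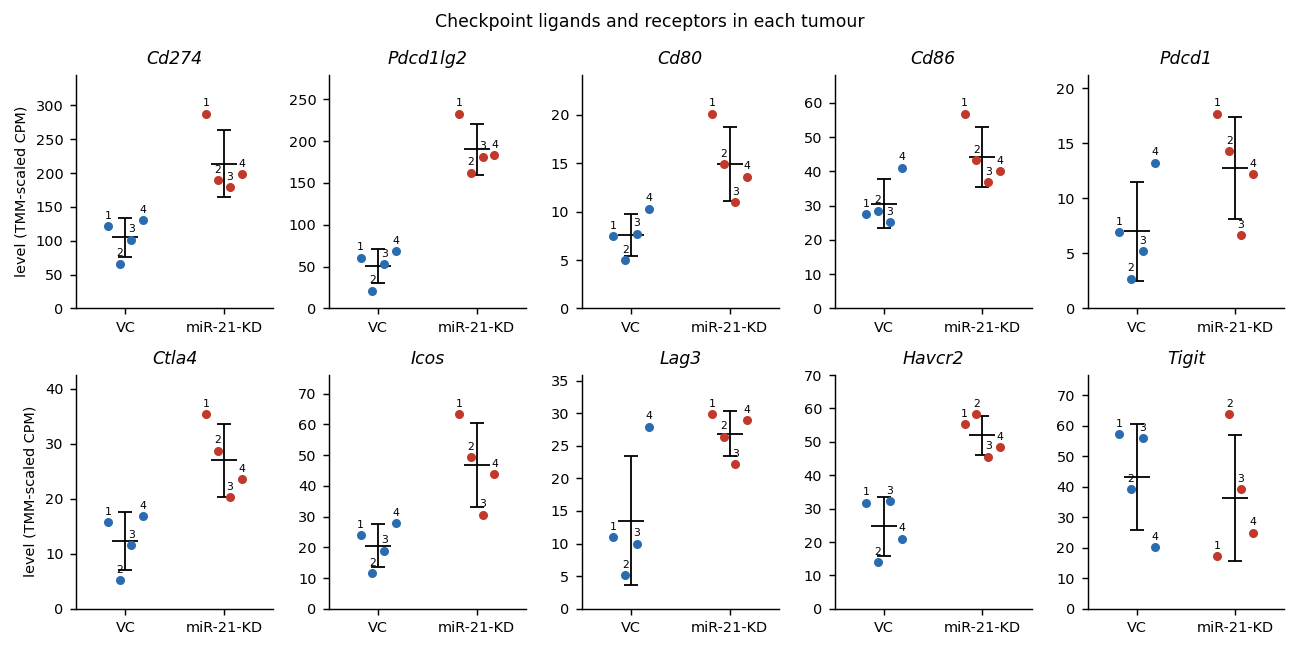
Level of each checkpoint gene in each tumour, in TMM-scaled CPM (vertical axes start at 0). Points are tumours with their replicate number, and bars show the mean ± SD of the 4 tumours of a group. In the panels of Cd274, Pdcd1lg2, Cd80, Ctla4, Icos and Havcr2 every miR-21-KD point lies above every VC point, and Tigit shows no such order.

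Pdcd1lg2, the gene of the second PD-1 ligand, had the largest change of the 10. It stood at 60.9, 21.5, 52.7 and 68.3 CPM in VC tumours 1 to 4 and at 233, 163, 182 and 184 CPM in miR-21-KD tumours 1 to 4. The lowest miR-21-KD tumour was thus well above the highest VC tumour. The means were 50.8 ± 20.6 and 190.1 ± 30.1 CPM (SD, 4 tumours each), a log2 fold change of 1.90 with a standard error of 0.32 and an edgeR adjusted p of 0.00641. Pdcd1lg2 lies at chr19:29410919-29471161 on the plus strand (GRCm38).

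Cd274, the gene of PD-L1, lies just upstream at chr19:29367455-29388095 on the same strand. Its VC tumours held 122, 66.4, 102 and 131 CPM and its miR-21-KD tumours 288, 189, 179.8 and 199 CPM. All 4 miR-21-KD tumours exceeded all 4 VC tumours, with VC tumour 2 lowest and miR-21-KD tumour 1 highest. Means of 105 ± 28.6 and 214 ± 50.0 CPM gave a log2 fold change of 1.02 (standard error 0.23, edgeR adjusted p = 0.0126). An annotated antisense gene shares 511 exonic bases with Cd274, and because the strand setting of the counting is not given in the sources used here, reads from that stretch cannot be assigned to one strand. The other 9 checkpoint genes share no exonic base with another annotated gene.

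The ratio of the pair of PD-1 ligands is given as a description, since the pair was singled out with its values in view. There were 0.500, 0.323, 0.519 and 0.522 reads of Pdcd1lg2 per read of Cd274 in VC tumours 1 to 4, and 0.809, 0.859, 1.01 and 0.923 in miR-21-KD tumours 1 to 4. The ratio was thus higher in every miR-21-KD tumour than in any VC tumour, with means of 0.466 ± 0.0955 and 0.900 ± 0.0865. The exact two-sided permutation test, which restates the separation that led to this choice, gave p = 0.0286, the smallest that 4 against 4 tumours allow. Adjusted over the 2 ratios tested it was 0.0571. Even full separation could not pass that adjustment unless the other ratio separated as well, so the adjusted value decides nothing. Of all tested genes, 1.52% had a ratio to Cd274 that was higher in all miR-21-KD than in all VC tumours.

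Cd80, which binds both CD28 and CTLA-4, had the lowest counts of the ligands. VC tumours 1 to 4 had 7.45, 5.03, 7.72 and 10.3 CPM and miR-21-KD tumours 1 to 4 had 20.1, 14.9, 11.0 and 13.6 CPM. The groups were separated by a narrow gap, between VC tumour 4 and miR-21-KD tumour 3. The log2 fold change was 0.97 with a standard error of 0.25, and the edgeR adjusted p of 0.0194 became 0.0533 without VC tumour 3.

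Cd86, the other ligand of CD28 and CTLA-4, did not pass the threshold. It measured 27.5, 28.6, 25.2 and 41.1 CPM in VC tumours and 56.9, 43.4, 36.9 and 40 CPM in miR-21-KD tumours. VC tumour 4 lay inside the range of the miR-21-KD tumours and the other VC tumours lay below it. The estimate was a log2 fold change of 0.53 (95% interval 0.11 to 0.96, edgeR adjusted p = 0.0512). It passed without VC tumour 4 (0.70, edgeR adjusted p = 0.0152) and in DESeq2, limma-voom, upper-quartile scaling and a stricter count filter. The ratio of Cd80 to Cd86 averaged 0.251 ± 0.0550 over VC tumours and 0.334 ± 0.0250 over miR-21-KD tumours, and the groups overlapped.

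Among the receptors, Icos had the highest estimate. ICOS is a stimulatory receptor of the CD28 family that T cells display after activation. Its level was 23.9, 11.5, 18.9 and 27.9 CPM in VC tumours 1 to 4 and 63.5, 49.3, 30.7 and 43.8 CPM in miR-21-KD tumours 1 to 4. The groups did not overlap, and VC tumour 4 and miR-21-KD tumour 3 were the nearest to each other. Icos rose 2.28-fold, a log2 fold change of 1.19 with a standard error of 0.29 (edgeR adjusted p = 0.0165, and 0.051 without VC tumour 3).

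Ctla4, the inhibitory counterpart of CD28, lies beside Icos on chromosome 1, at chr1:60887000-60915832 with Icos at chr1:60977927-61000320. It stood at 15.8, 5.27, 11.6 and 16.9 CPM in VC tumours and at 35.5, 28.8, 20.3 and 23.6 CPM in miR-21-KD tumours. Every miR-21-KD tumour exceeded every VC tumour. The rise was 2.18-fold (log2 fold change 1.13, standard error 0.34, edgeR adjusted p = 0.0305). This call was lost without VC tumour 3 (adjusted p = 0.0792), without miR-21-KD tumour 1 (0.0769) and without miR-21-KD tumour 4 (0.0578).

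Havcr2 encodes TIM-3, an inhibitory receptor that is found on T cells and also on dendritic cells and macrophages. VC tumours 1 to 4 gave 31.8, 13.9, 32.2 and 21.0 CPM, and miR-21-KD tumours 1 to 4 gave 55.2, 58.4, 45.6 and 48.5 CPM. All miR-21-KD tumours were above all VC tumours and varied little among themselves. The log2 fold change was 1.07 with a standard error of 0.25 (edgeR adjusted p = 0.0138), and it passed the threshold in each of the 15 alternative fits, as did those of Cd274 and Pdcd1lg2.

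Pdcd1 encodes PD-1, the receptor of both PD-L1 and PD-L2. Its level was 6.93, 2.71, 5.20 and 13.2 CPM in VC tumours and 17.7, 14.3, 6.66 and 12.2 CPM in miR-21-KD tumours. VC tumour 4 lay above miR-21-KD tumours 3 and 4, so the groups overlapped. The log2 fold change of 0.86 had a 95% interval of -0.20 to 1.92, which holds 0 as well as a rise as large as the estimate for Pdcd1lg2 (edgeR adjusted p = 0.167). Without VC tumour 4 the estimate was 1.35 with an adjusted p of 0.0334.

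Lag3 encodes an inhibitory receptor that binds MHC class II. It read 11.0, 5.19, 10.0 and 27.96 CPM in VC tumours 1 to 4 and 29.9, 26.4, 22.2 and 29.0 CPM in miR-21-KD tumours 1 to 4. Here too VC tumour 4 stood among the miR-21-KD tumours, far above the other VC tumours. The log2 fold change was 0.99 (95% interval 0.00 to 1.98, edgeR adjusted p = 0.0972). With the replicate number as a block Lag3 rose by 1.22 (adjusted p = 0.0369), and without VC tumour 4 by 1.61 (adjusted p = 0.00835).

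Tigit, an inhibitory receptor of T cells and NK cells that binds PVR, was the exception to the pattern of the other 9 genes. Its levels were 57.3, 39.2, 56.0 and 20.3 CPM in VC tumours and 17.2, 63.9, 39.1 and 25.0 CPM in miR-21-KD tumours. The highest and the lowest tumour were both miR-21-KD tumours, and the ranges nearly coincided. The log2 fold change was -0.25 (95% interval -1.25 to 0.74, edgeR adjusted p = 0.669), and Tigit was the single gene of the 10 with a negative estimate. Over the 15 alternative fits its estimate ran from -0.68 to -0.02, with adjusted p between 0.195 and 0.979.

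**Figure D2:**
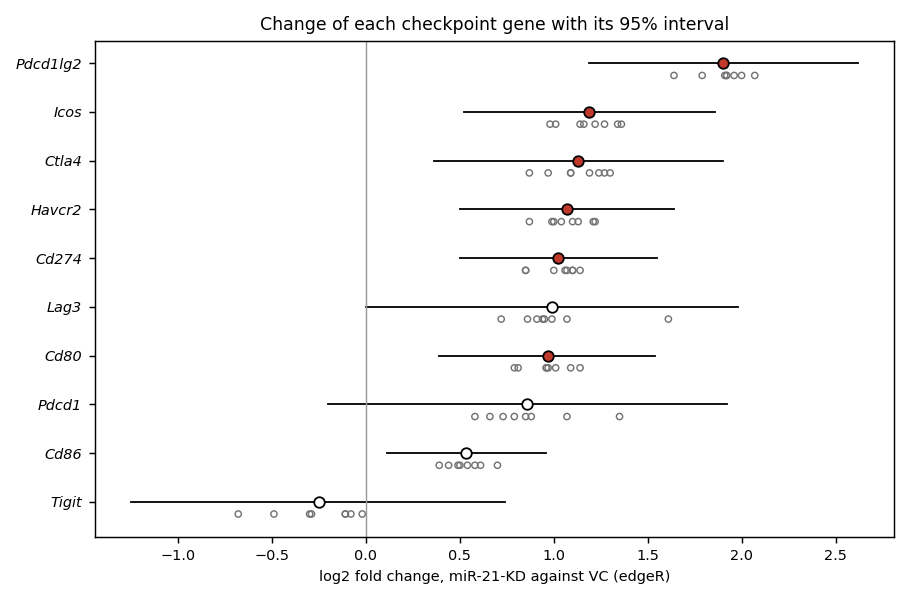
Log2 fold change of each checkpoint gene, miR-21-KD against VC, from edgeR. Filled red points had an adjusted p under 0.05, white points did not, lines are 95% intervals, and open grey circles are fits that left out 1 tumour. Pdcd1lg2 is farthest to the right at 1.90, and Tigit, at -0.25, is the point left of 0.

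The tumours of a group were ordered alike for most of the genes. VC tumour 4 was the highest VC tumour for 8 of the 10 genes, all but Tigit and Havcr2, and VC tumour 2 was the lowest for 8, all but Tigit and Cd86. Among miR-21-KD tumours, tumour 1 was highest for 8 genes, with tumour 2 above it for Havcr2 and Tigit, and tumour 3 was lowest for 8, with Pdcd1lg2 and Tigit as the exceptions. Tigit was lowest in the tumours in which most of the others were highest, VC tumour 4 and miR-21-KD tumour 1. These were also the tumours with the lowest epithelial marker sum of their group, which was 2079, 2232, 2264 and 1306 CPM in VC tumours 1 to 4 and 903, 1663, 2016 and 1537 CPM in miR-21-KD tumours 1 to 4. Krt8 and Krt18, which made up most of that sum in VC tumours, were lowest in the same pair of tumours, as was Krt7. Epcam, Cdh1, Krt19, Cldn3, Cldn4 and Cldn7 were instead lowest in miR-21-KD tumour 2 among miR-21-KD tumours. Among VC tumours, Epcam, Krt19 and Cldn7 were lowest in VC tumour 2. The part of epithelial cells in the level of Tigit was not tested. The spread within VC tumours was widest for Lag3, where the highest tumour held 5.39 times the level of the lowest, and for Pdcd1, with 4.88 times.

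VC tumour 4 had the highest sum among VC tumours of the T cell, NK cell, dendritic cell, macrophage and B cell marker lists, and the highest summed Cd3 level. VC tumour 1 had the highest sums of regulatory T cell and neutrophil markers, and VC tumour 4 the lowest of mast cell and eosinophil markers. Both tumours numbered 4 stood above the rest of their group in B cell markers. The B cell sum was 157 CPM in VC tumour 4 against 1.99 to 5.90 CPM in the other VC tumours, and 85.2 CPM in miR-21-KD tumour 4 against 9.50 to 13.4 CPM in the other miR-21-KD tumours. Without VC tumour 4, 9 of the 10 checkpoint genes were called higher, all but Tigit. Without VC tumour 3, by contrast, 3 were called, namely Cd274, Pdcd1lg2 and Havcr2. Calls over all genes fell as well, from 2826 higher in the main fit to 1449 in that one.

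**Figure D3:**
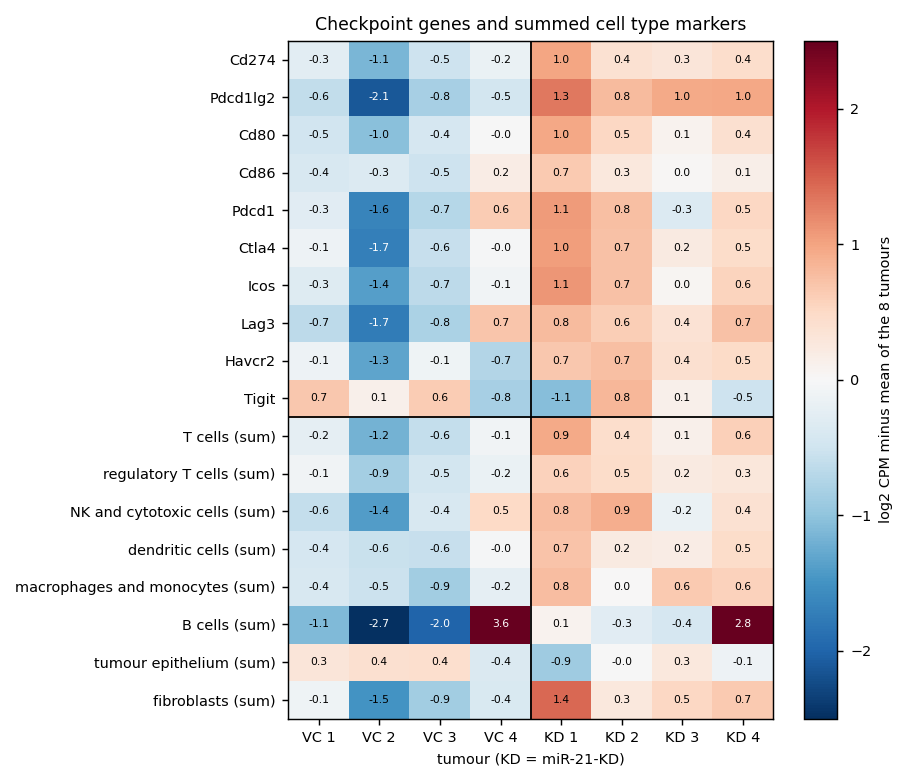
Log2 CPM of each checkpoint gene and of summed marker lists in each tumour, minus the mean of the 8 tumours, with the value printed in each cell and colours clipped at the ends of the bar. Most checkpoint genes follow the T cell sum from the lowest value in VC tumour 2 (-1.18) to the highest in miR-21-KD tumour 1 (0.94), whereas Tigit is at -1.06 in miR-21-KD tumour 1 and at 0.13 in VC tumour 2. Thy1, which stromal cells also express, makes up 52.1% to 75.2% of the T cell sum.

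Levels of different genes were compared per kilobase of exon. In VC tumours the mean order began with Tigit at 47 CPM per kb, Cd274 at 29.1 and Pdcd1lg2 at 25.9, followed by Havcr2 at 9.09, Cd86 at 8.36, Lag3 at 6.42, Icos at 5.99, Ctla4 at 5.32, Pdcd1 at 3.64 and Cd80 at 2.06. Each neighbour in that order overlapped the next over the 4 tumours. In miR-21-KD tumours Pdcd1lg2 came first at 97.0 CPM per kb, above Cd274 at 59.1 without overlap. Tigit followed at 39.5, Havcr2 at 19.1, Icos at 13.6, Lag3 at 12.7, Cd86 at 12.1, Ctla4 at 11.6, Pdcd1 at 6.59 and Cd80 at 4.03, each overlapping the next. The position of Tigit rests on a short annotated transcript, since its exons cover 919 bases against 1930 to 3703 in the other 9 genes.

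T cell and leukocyte markers are given beside these genes. Cd3e, a chain of the T cell receptor complex, rose from 9.65 ± 4.73 to 27.9 ± 8.90 CPM (log2 fold change 1.53, edgeR adjusted p = 0.0166) and Cd4 by 1.56 (adjusted p = 0.0128), while Cd8a had an estimate of 1.13 that did not pass (adjusted p = 0.261). Of 12 T cell genes, 10 rose, with a median log2 fold change of 1.39, led by Cd247, Cd4 and Ubash3a. The shares called over all tested genes, 19.6% higher and 19.5% lower, stand beside this and every later list count. The summed level was 177 to 375 CPM in VC and 440 to 769 CPM in miR-21-KD tumours. Thy1, which stromal cells also express, made up 52.1% to 75.2% of that sum. Cd3d, Cd3e and Cd3g together overlapped between the groups, with 56.4 CPM in VC tumour 4 and 53.8 CPM in miR-21-KD tumour 3. Ptprc, the pan-leukocyte gene of CD45, rose from 189 ± 68.2 to 375 ± 75.6 CPM (log2 fold change 0.99, adjusted p = 0.018). The part of these markers in the change of the checkpoint genes was not tested. The T cell count was 3 without VC tumour 3, and 5 without either miR-21-KD tumour 1 or 4.

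For this reason each receptor was also expressed per 100 CPM of Cd3d, Cd3e and Cd3g together. The summed Cd3 level itself was 33.8, 14.6, 24.0 and 56.4 CPM in VC tumours and 112, 82.6, 53.8 and 90.3 CPM in miR-21-KD tumours. On that scale no receptor was higher in miR-21-KD tumours, and all 6 had negative mean log2 differences. Ctla4 was at 40.3 ± 8.71 over the VC and 32.6 ± 4.93 over the miR-21-KD tumours, Icos at 69.4 ± 13.8 and 55.5 ± 4.88, Lag3 at 39.8 ± 7.53 and 33.0 ± 6.04, and Havcr2 at 90.1 ± 39.9 and 64.7 ± 16.2. The groups overlapped for each of these 4.

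Pdcd1 was the receptor whose ratio to Cd3 separated the groups. It had 20.5, 18.6, 21.6 and 23.5 CPM per 100 CPM of Cd3 in VC tumours and 15.9, 17.3, 12.4 and 13.5 in miR-21-KD tumours. The means were 21.1 ± 2.05 and 14.8 ± 2.24, and the spread of Pdcd1 between tumours was much smaller on this scale than in CPM. Such a separation downward was common, since 44.5% of all tested genes had a ratio to Cd3 that was lower in every miR-21-KD tumour, and 0.334% one that was higher. One gene of 6 is therefore below the share of all genes.

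Per kilobase of exon, Tigit in VC tumours, at 47 CPM per kb, was far above Cd3d at 3.93, Cd3e at 2.36 and Cd3g at 4.72. That value rests on the 919 annotated bases of Tigit. Which cells the Tigit reads came from was not tested, so its ratio to Cd3 is not taken as a level within T cells. Tigit relative to Cd3 was 170, 268, 233 and 35.9 in VC tumours 1 to 4 and 15.4, 77.4, 72.7 and 27.6 in miR-21-KD tumours 1 to 4. VC tumours 1 to 3 lay above all miR-21-KD tumours and VC tumour 4 lay among them. The mean log2 difference was -1.83, and the exact two-sided permutation test did not pass (p = 0.0857). With 1 tumour left out the difference ran from -2.48, without VC tumour 4, to -1.38, without miR-21-KD tumour 1. Within same-numbered pairs Tigit was lower in the miR-21-KD tumour in 4 of 4, where the exact paired test gives p = 0.125, the smallest that 4 pairs allow. Pdcd1, Ctla4, Icos and Lag3 per Cd3 were lower in 4 of 4 pairs as well and Havcr2 in 3 of 4, and 79.9% of all tested genes were lower in all 4 pairs on this scale. Relative to Foxp3, Tigit was at 5.87 ± 3.06 over the VC and 2.08 ± 1.04 over the miR-21-KD tumours, again with overlap.

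The sign of these ratios depended on the marker for 4 of the receptors. With Ptprc in place of Cd3 the mean log2 difference was 0.19 for Ctla4, 0.18 for Icos, 0.21 for Lag3 and 0.11 for Havcr2, -0.04 for Pdcd1 and -1.35 for Tigit. With the summed T cell list the values were 0.18, 0.16, 0.20, 0.09, -0.05 and -1.36 in the same order, and Thy1, a gene that stromal cells also express, made up 52.1% to 75.2% of that sum. The differences for Pdcd1 were close to 0 with both of these markers, and that for Tigit was negative with each of the 3.

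Ctla4 and Icos were also set against Foxp3 and Cd28, other T cell genes. For each read of Foxp3, the factor that defines regulatory T cells, there were 1.44 ± 0.163 reads of Ctla4 in VC tumours and 1.52 ± 0.152 in miR-21-KD tumours. The numbers for Icos were 2.47 ± 0.185 and 2.62 ± 0.389. Per read of Cd28 there were 2.30 ± 0.968 and 2.07 ± 0.603 reads of Ctla4, and 3.93 ± 1.47 and 3.49 ± 0.683 of Icos. In all 4 ratios the groups overlapped, and the means differed by less than 1 SD of the VC tumours. The annotated exons of Foxp3 share 2082 bases with 4 other genes, so its counts are less certain.

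The ligands were related to Ptprc. Cd274 was at 57.3 ± 11.4 CPM per 100 CPM of Ptprc over the VC and 56.9 ± 3.21 over the miR-21-KD tumours, a mean log2 difference of 0.01. Cd80 was at 4.16 ± 0.886 and 3.97 ± 0.572, a difference of -0.06. Cd86 was at 17.0 ± 3.63 and 11.9 ± 1.24, a difference of -0.50, with 3 of the 4 miR-21-KD tumours below every VC tumour. The value for Pdcd1lg2 was larger than these. It was at 30, 16.3, 37.5 and 24.4 in VC tumours and at 48.4, 50.8, 56.2 and 48.8 in miR-21-KD tumours. Every miR-21-KD tumour was above every VC tumour, as for 1.53% of all tested genes, and the mean log2 difference was 0.98. With Itgam, or with Csf1r, Adgre1 and Itgax together, as the denominator it was 1.05 and 0.97. A ratio to the dendritic cell list is not given here. The 3 genes of smallest adjusted p in that list, Ccl22, Ccr7 and Flt3, had log2 fold changes of 1.85, 1.65 and 1.78, beside 1.90 for Pdcd1lg2. The median of that list was 1.20.

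**Figure D4:**
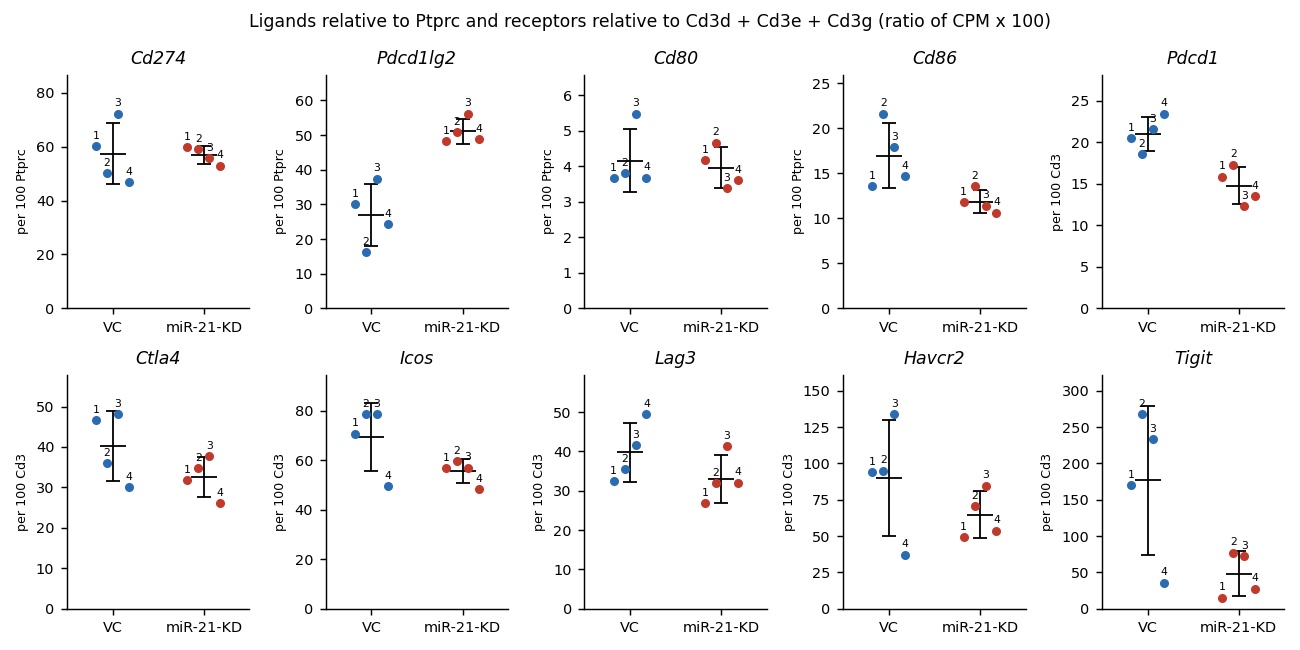
Ligands per 100 CPM of Ptprc and receptors per 100 CPM of Cd3d, Cd3e and Cd3g in each tumour (vertical axes start at 0). Points are tumours with their replicate number and bars show mean ± SD of 4 tumours. Pdcd1lg2 is the one panel with all miR-21-KD points above the VC points (48.4 to 56.2 against 16.3 to 37.5), and Pdcd1 is the one with all of them below.

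Dendritic cells and macrophages are the usual source of PD-L2, CD80 and CD86. Of 12 dendritic cell genes, 7 rose, with a median log2 fold change of 1.20. Ccl22, a chemokine that attracts regulatory T cells, rose by 1.85 (edgeR adjusted p = 0.00571), Ccr7, the homing receptor of mature dendritic cells, by 1.65 (0.00656), and Flt3, a growth factor receptor of their precursors, by 1.78 (0.00663). Of 14 macrophage and monocyte genes, 10 rose, with a median of 0.93, among them Mrc1 (1.24), Itgam (0.98) and Cd68 (0.91). The summed macrophage list was at 3778 to 5894 CPM in VC and 6905 to 11738 CPM in miR-21-KD tumours, and the dendritic cell list at 593 to 868 and 1008 to 1438 CPM. The part of these cells in the ligand levels was not tested. Without VC tumour 3 the macrophage count was 4, and without miR-21-KD tumour 2 there was 1 dendritic cell gene that fell.

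Of 9 regulatory T cell genes tested, 7 rose, with a median log2 fold change of 1.09. Foxp3 rose by 1.08 (edgeR adjusted p = 0.0231), Ikzf4 by 1.40, Tnfrsf4, a costimulatory receptor, by 1.09, and Il2ra, the high-affinity chain of the interleukin-2 receptor, by 1.21. The count was 3 without VC tumour 3 and 4 without miR-21-KD tumour 1. Of 8 NK and cytotoxic cell genes, 2 rose, Klrd1 (1.83) and Klrb1c (1.43), a share near the 19.6% of all genes, while Ncr1 had an estimate of 0.98 with an adjusted p of 0.0527. That count was 7 without VC tumour 4, 1 without VC tumour 3 or miR-21-KD tumour 1, and 4 in DESeq2 and in limma-voom.

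The partners and relatives of the checkpoint genes formed a list of 24, of which 21 were tested, 7 rose and 2 fell, with a median log2 fold change of 0.56. Pvrig was not analysed here, and Fgl1 and Clec4g, which bind LAG-3, were too low to test. Cd276 (B7-H3), a B7 family gene that many carcinomas express, fell from 109 ± 19.0 to 61.4 ± 9.76 CPM (log2 fold change -0.82, edgeR adjusted p = 0.00823). Lgals9, which encodes the TIM-3 ligand galectin-9, fell by 0.45 on the log2 scale (adjusted p = 0.014), the opposite direction to its receptor Havcr2. The number of genes of this list that rose was 12 with the replicate block and in DESeq2, 11 without VC tumour 4, 4 without VC tumour 2, and 3 without VC tumour 3, miR-21-KD tumour 1 or miR-21-KD tumour 4.

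The PVR axis of Tigit also holds receptors that compete for its ligand. Cd226, the activating receptor that competes with TIGIT for PVR, was at 1.25, 0.399, 1.03 and 2.45 CPM in VC tumours and at 8.25, 4.09, 3.73 and 5.64 CPM in miR-21-KD tumours. The groups did not overlap, and Cd226 rose by 2.08 on the log2 scale (edgeR adjusted p = 0.014). Pvr itself was at 85.4 ± 16.6 and 90.0 ± 21.7 CPM (log2 fold change 0.08, adjusted p = 0.776). Nectin1, a cell adhesion gene of the nectin family, rose by 0.55 (adjusted p = 0.0128). Of the genes of the list that rose, 5 more fall outside the naming rule and were chosen after their values were seen: Cd96, a further PVR receptor (1.34, adjusted p = 0.0271), Lgals3, whose product galectin-3 binds LAG-3 (0.60, 0.014), Cd160, a receptor of the HVEM protein (0.95, 0.0476, and 0.0626 with the replicate block), Havcr1, the TIM-1 gene (1.59, 0.0289), and Vtcn1, the B7-H4 gene (0.399 ± 0.422 and 3.32 ± 2.13 CPM, 0.0288).

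The partners Cd28, Icosl and Ceacam1 did not pass the threshold without the replicate block and passed with it. Cd28, the stimulatory receptor for CD80 and CD86, had an estimate of 1.24 with a standard error of 0.47 (edgeR adjusted p = 0.0654, and 0.0159 with the block). Icosl, the ligand of ICOS, had 0.49 (adjusted p = 0.0882, and 0.0434 with the block), and Ceacam1, a TIM-3 partner, had 1.07 (0.0522, and 0.005 with the block). Class II genes, whose products are the main ligand of LAG-3, had a median log2 fold change of 1.04, with 0 of 6 called by edgeR, 3 at an unadjusted p under 0.05, 4 called by DESeq2 and 1 by limma-voom. All 6 rose with the replicate block and all 6 without VC tumour 4. Among them H2-Ab1 had an estimate of 1.23 (adjusted p = 0.0656, and 0.0107 with the block), H2-Eb1 of 1.18 (0.0906, and 0.0141 with the block) and Cd74 of 1.00 (0.0913, and 0.0214 with the block).

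Interferon gamma and its pathway were examined because it induces PD-L1. Ifng itself was at 1.84, 0.160, 1.97 and 4.01 CPM in VC and at 6.79, 6.05, 2.60 and 6.97 CPM in miR-21-KD tumours, of which VC tumour 2 was below the limit that a count of 0 allows. The log2 fold change was 1.49 with a standard error of 0.66 and did not pass (edgeR adjusted p = 0.0997). Of the 22 genes of the list, 7 rose, with a median log2 fold change of 0.23. They were led by Cmtm6, whose product keeps PD-L1 at the cell surface (132 ± 7.60 and 188 ± 18.9 CPM, log2 fold change 0.51, adjusted p = 0.0076), by Socs1, a feedback inhibitor of JAK kinases (0.66, adjusted p = 0.0105), and by Irf8, a factor of myeloid cells (0.61, adjusted p = 0.0177). Genes that interferon gamma induces were also looked up after their values were seen. Ido1, an enzyme that degrades tryptophan, rose by 1.25 (adjusted p = 0.0378), and Irf1 (0.09), Cxcl9 (-0.11), Cxcl10 (-0.03), Cxcl11 (-0.38), Gbp2 (-0.33) and Ciita (0.69) did not pass. The number that rose was 2 without VC tumour 2 and 4 without VC tumour 3.

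Of 21 signalling genes that act beneath these receptors and the T cell receptor, 12 rose and 3 fell, with a median log2 fold change of 0.71. Pik3r1, a regulatory subunit of PI3K, rose by 0.92 (edgeR adjusted p = 0.00699), Dgka, a diacylglycerol kinase that dampens T cell receptor signals, by 0.66 (0.00764), and Fyn, a SRC family kinase, by 0.70 (0.00811). Ptpn6 and Ptpn11, the phosphatases SHP-1 and SHP-2 that PD-1 recruits, were looked up after their values were seen. Ptpn6 had an estimate of 0.07 (adjusted p = 0.807) and Ptpn11 fell by 0.26 on the log2 scale (0.0461). The number that rose was 4 without VC tumour 3 and 6 without miR-21-KD tumour 1 or 4, and the number that fell was 1 without VC tumour 2 or 3, without miR-21-KD tumour 1, 3 or 4, with upper-quartile scaling and with the stricter count filter.

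Of 22 tested genes that regulate T cell exhaustion and activation, 8 rose and 1 fell, with a median log2 fold change of 0.63. Id2 rose by 1.02 (edgeR adjusted p = 0.00656) and Batf, an AP-1 factor of effector T cells, by 1.01 (0.00922). Nt5e, the ectoenzyme CD73 that makes adenosine, fell from 801 ± 196 to 243 ± 85.2 CPM, a log2 fold change of -1.72 (0.00667). Id2 and Nt5e are expressed by many cell types and are not particular to T cells. The number that rose was 13 with the replicate block, 13 without VC tumour 4 and 5 without VC tumour 3.

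**Figure D5:**
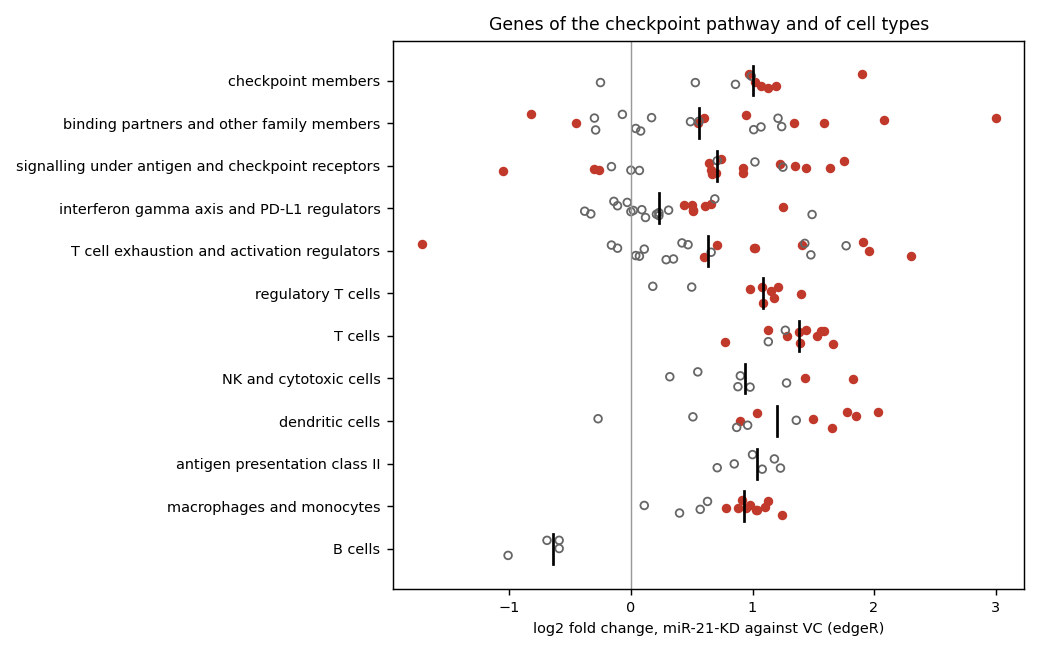
Log2 fold change, miR-21-KD against VC, of each tested gene of the checkpoint set and of 11 related lists. Red points had an edgeR adjusted p under 0.05, open points did not, and the black bar is the median of a list, which ranges from -0.64 (B cells) to 1.39 (T cells) around 1.01 for the checkpoint genes.

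Across the 16 related lists, 201 genes were in the table and 191 were tested, of which 89 rose and 8 fell. Over all tested genes 19.6% were called higher and 19.5% lower. In each list without a fallen gene, 0 genes fell at an unadjusted p under 0.05 and 0 by DESeq2 or limma-voom. All of these lists were drawn up from general knowledge, with earlier results of these data known.

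Promoters were searched for 4 motifs, because 6 of the genes moved together. RefSeq promoters (GRCm38.p6, 250 bases before to 50 after a start site) were at hand for 7 of the 10 genes, with Icos, Lag3 and Cd86 not among them. The gamma-activated site TTCNNNGAA, present in 8.3% of 32851 promoters, the interferon-stimulated element (GAAA, any 2 bases, GAAA), in 3.44%, and the NF-kappaB motif (GGG, any 2 bases, TTTCC), in 1.63%, had a match in 0 of the 7 on either strand. The AP-1 motif TGANTCA, in 7.81% of all promoters, matched in 2 of the 7, Havcr2 and Cd80. Both rose, as did Cd274, Pdcd1lg2 and Ctla4, whose promoters held no match. The windows of 60 bases around the matches are given on the plus strand, with the motif in capitals, at chr11:46454704-46454763 for Havcr2 and chr16:38458864-38458923 for Cd80. The match begins 200 bases before the start site in Havcr2 and 42 bases before it in Cd80.
Havcr2: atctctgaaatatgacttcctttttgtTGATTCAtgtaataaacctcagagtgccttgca
Cd80: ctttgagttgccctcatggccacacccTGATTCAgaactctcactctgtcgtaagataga
These letters describe the windows and do not show that a factor binds there.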

How the data were processed

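The authors deposited raw read counts per gene, by Entrez identifier, for 8 whole tumours. The submitters' processing notes name Subread, featureCounts, edgeR, limma and the build mm10, without versions or roles. The annotation and strand setting are not given in the sources used here, and 0 columns were left out. Symbols (25275 of 27179 identifiers), positions and exon lengths came from RefSeq GRCm38.p6 and GENCODE GRCm38 annotation, the same assembly as mm10.

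The filter filterByExpr, at a minimum count of 10 and a minimum total of 15, kept 14382 genes that held 99.9% of all counts. VC and miR-21-KD tumours were compared with TMM scaling and the robust quasi-likelihood test of edgeR 4.0.16 in R 4.3.3, which was tested on simulated counts, with Benjamini-Hochberg adjustment over all tested genes and a threshold of 0.05. Ratios were taken between TMM-scaled CPM of a tumour, and those of Pdcd1lg2 to Cd274 and of Tigit to Cd3 were compared with exact permutation tests (scipy 1.17.1). The paired test of the latter was chosen after seeing the data. The first principal component held 67.5% of the variance. Alternatives were DESeq2 1.42.0, limma-voom (limma 3.58.1), library size and upper-quartile scaling, no filter, at least 10 counts in every tumour, a replicate block and each tumour left out.

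The labels number tumours 1 to 4 in both groups. After removal of group means, same-numbered tumours correlated at 0.272, 0.421, 0.175 and 0.376, a hint of pairs that comes from the data alone. The 12 other combinations averaged -0.105. Removal of group means pushes these below 0 when the same-numbered ones are above it, so they are no separate comparison. The main fit, its intervals and the exact test of the ligand ratio did not use the pairs. The replicate block, an alternative fit, and the paired comparisons of ratios did. Blocked values are given where they change the call of a named gene.

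The 10 genes and all lists were chosen with earlier results of these data known. Named genes are the 10, 12 anchors (Cd28, Icosl, Pvr, Cd226, Lgals9, Ceacam1, Ifng, Foxp3, Cd3e, Cd8a, Cd4 and Ptprc) and the 3 genes of smallest adjusted p in each list. Any other gene named was chosen after its values were seen, and the result of 1 such gene is not reported here. The paper gives an earlier day of recovery than the labels, whose day is used.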

Additional observations from a re-analysis of the deposited data

Results flagged for a closer look

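Of 40 sets of 4 tumours examined (the level of each of the 10 genes, and its ratio to a marker, in each group), 1 held a tumour that stood apart by Dixon's criterion. The level of Cd80 per 100 CPM of Ptprc was 5.49 in VC tumour 3, against 3.67 to 3.81 in the other VC tumours, a gap of 0.924 of the range and above the 95% critical value for 4 values. Chance flags about 1 in 20 such sets.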

How the results depend on the processing

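Cd274, Pdcd1lg2 and Havcr2 were called higher in all 15 alternatives, Icos and Cd80 in 14, Ctla4 in 12, Cd86 in 5, Lag3 in 4, Pdcd1 in 1 and Tigit in 0, and no estimate for the 10 genes changed sign. The number called higher was 3 without VC tumour 3 and at most 9, and at most 8 when no tumour was left out. Lag3 passed in DESeq2 (log2 fold change 1.01, adjusted p = 0.0444), in limma-voom (1.25, 0.0306) and with the replicate block (1.22, 0.0369), which changed no other call among the 10. Cd86 passed in DESeq2 (0.55, 0.0209), with upper-quartile scaling (0.58, 0.0453), with a floor of 10 counts in each tumour (0.59, 0.0406) and in limma-voom (0.54, 0.043).

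With 1 tumour left out, log2 fold changes ranged from 0.58 to 1.35 for Pdcd1, 0.87 to 1.30 for Ctla4, 0.72 to 1.61 for Lag3, 0.98 to 1.36 for Icos, 0.79 to 1.14 for Cd80 and 0.39 to 0.70 for Cd86. Ctla4 lost its call at 1.09, 0.97 and 1.19, Icos at 1.14 and Cd80 at 0.97. Over all genes, 1449 to 3290 were called higher and 1487 to 3550 lower, and over the related lists 42 to 114 and 5 to 9. The fits with 1449, 1487 and 42 were the one without VC tumour 3, so the lower counts there were not particular to a list. The cause of the weight of single tumours was not tested beyond the smaller number of samples.

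With the T cell list as the denominator, the log2 differences of receptor ratios were -0.05 for Pdcd1, 0.18 for Ctla4, 0.20 for Lag3 and 0.16 for Icos, and with Ptprc they were -0.04, 0.19, 0.21 and 0.18. The cause was not tested. The part of counting error in the spread of the least abundant genes, Pdcd1 and Cd80, was not tested.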

Other observations

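Markers of other cell types were counted in the same way, beside the 19.6% of all genes called higher and 19.5% called lower, and no test of a cell type was run. Of 8 fibroblast genes, 6 rose, with a median log2 fold change of 1.43, and their summed level was 3072 to 8061 CPM in VC and 10479 to 23412 CPM in miR-21-KD tumours. Col1a1 and Col1a2, the chains of type I collagen, rose by 1.48 and 1.44, and Dcn, a small matrix proteoglycan, by 1.90. Without VC tumour 3 there were 2 that rose, and without miR-21-KD tumour 1 there was 1 that fell. Of 9 epithelial genes, 7 rose and 1 fell, with a median of 1.52. Krt19 rose by 3.60, Cldn3 by 2.31 and Epcam by 1.93. Krt18, named after its values were seen, fell from 1023 ± 243 to 460 ± 216 CPM (log2 fold change -1.15, edgeR adjusted p = 0.0374), and Krt8, named likewise, was at 808 ± 173 and 439 ± 213 CPM (-0.88, adjusted p = 0.087, and 0.0413 with the replicate block). The summed level of the list overlapped between the groups. The number that rose was 4 without VC tumour 2 or 3 or miR-21-KD tumour 3 or 4, and the number that fell was 0 without any of these or VC tumour 1, and 2 without miR-21-KD tumour 2 or with the replicate block.

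Of 9 mast cell and eosinophil genes, 3 rose, Siglecf (1.96), Ccr3 (1.53) and Kit (0.86), with a median of 0.62. That count was 1 without VC tumour 3 and 0 without VC tumour 2 or miR-21-KD tumour 1, 3 or 4. Of 7 neutrophil genes, 1 rose, the gelatinase gene Mmp9 (1.76, edgeR adjusted p = 0.00501), with a median of 0.76, and 3 rose with the replicate block or without VC tumour 1. Of 7 endothelial genes, Vwf (1.96) and Tek (1.10) rose and Eng fell by 0.46 on the log2 scale, with a median of -0.01. The number that rose was 1 without VC tumour 2, 3 or 4 or miR-21-KD tumour 1, 3 or 4, and the number that fell was 2 without VC tumour 3 or with the replicate block. For B cells, 4 of 7 genes were tested and edgeR called 0, with 0 at an unadjusted p under 0.05 and 0 by DESeq2 or limma-voom. Cd79a, Cd79b and Ms4a1 had estimates of -1.01, -0.69 and -0.59, and 1 gene of the list was called higher without VC tumour 4.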
